A study of Rattus norvegicus with 35 samples.

Results

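Genes that run mitosis and genes that copy DNA were followed in rat mammary tumours and in normal mammary glands. The set was a fixed list of 57 genes, 28 mitotic and 29 for DNA replication, found by symbol in the annotation of the array. Of these, 45 were measured among the 10411 genes on the array, 20 mitotic and 25 for replication. The other 12 (Ccna2, Bub1, Nek2, Kif11, Kif23, Tpx2, Prc1, Cenpf, Cdt1, Gmnn, Cdc6 and Rrm2) had no probe set of their own in that annotation and were not analysed here. Total RNA was hybridised to 35 oligonucleotide arrays, on which a group of short probes, a probe set, reads a transcript and gives a signal. The 24 tumours had been induced with N-methyl-N-nitrosurea (NMU), a methylating carcinogen, and are labelled as frozen. The 11 normal glands fall by title into 8 named NewN1 to NewN8 and 3 others, named X27.1N, X28.1N and Young. The labels give no strain, age, dose or animal for any group, and no account of how the glands were obtained or of what sets the NewN glands apart from the other 3. No label states that each sample is a different rat, so p-values reflect only sample-to-sample spread, which may be partly technical.

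A dividing cell first copies its DNA and then separates the copies. In the first phase the MCM helicase opens the double strand, primase and the DNA polymerases build new strands on the clamp PCNA, and enzymes such as thymidine kinase supply nucleotides, and many of these genes are turned on by E2F factors. Mitosis is started by cyclin B with the kinase Cdk1 and ended when the anaphase-promoting complex marks cyclin B for destruction, and many mitotic genes are read from promoters with a CCAAT box, bound by NF-Y, and a cell cycle homology region (CHR), bound by the DREAM and MuvB complexes. In the adult mammary gland, epithelial division follows the hormones of the oestrous cycle and pregnancy, beside a bulk of fat that seldom divides.

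Values are deposited signals on a linear scale. For differences, signals were raised to a floor of 41.6 (the 10th percentile of all values) where they lay under it and converted to log2, so that a difference of 1 is a 2-fold change and changes of dim genes are understated. Of the 45 genes, 29 lay above the floor in every array. Differences are given with their standard error (SE) from limma's moderated test, and a gene was called when its p-value, adjusted by Benjamini-Hochberg over all 15866 probe sets, was under 0.05.

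The median signal of an array lay between 158 and 176, and the 3 groups differed in cell content. The 11 of 14 adipocyte markers measured summed to 619 to 5295 in tumours, 17391 to 32795 in NewN glands and 13163 to 35787 in the other 3 glands, and Lep was at the floor in every tumour. The 14 of 15 luminal epithelium markers measured summed to 1736 to 34799 in tumours, 8873 to 15603 in NewN glands and 5495 to 9179 in the other 3. Among the normal glands, NewN4, NewN6 and X27.1N were rich in lymphocyte transcripts: the mean log2 signal of 3 B-cell markers was 8.72, 9.38 and 8.91 in them, against a median of 6.27 over the NewN glands, 6.28 in X28.1N and 6.13 in Young. The 3 of 9 B-cell markers measured summed to 142 to 338 in tumours, 216 to 2616 in NewN glands and 215 to 1863 in the other 3, with Cd79b at the floor in every tumour, and 14 of 14 T and NK cell markers to 1550.2 to 3048, 1992 to 11746 and 1764 to 7042. A measure of RNA quality, the ratio of the 3′ to the 5′ Gapdh probe set, was 1.02 ± 0.080 (SD, n = 24) in tumours, 1.17 ± 0.13 (SD, n = 8) in NewN glands and 1.03 ± 0.059 (SD, n = 3) in the others. The part of cell content and RNA quality in the results below was not tested beyond the fits that are named with them. In bulk tissue, fewer dividing cells and less of a transcript per cell cannot be told apart.

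Mitotic genes were higher in tumours than in NewN glands nearly throughout. Of the 20 measured, 19 rose and 1 fell, with a median log2 difference of 1.13, where 31.4% of all genes were called higher, 28.9% lower, and the median was 0.02. Replication genes rose less: 18 of 25 rose, 2 fell and 5 missed the threshold, with a median of 0.45. A rise of at least 2-fold was found for 11 of the 20 mitotic genes and for 2 of the 25 replication genes. At least 20 of the 24 tumours lay above every NewN gland for 16 mitotic and 5 replication genes. Shares of all genes with such rises or such separation are not given here.

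**Figure D1:**
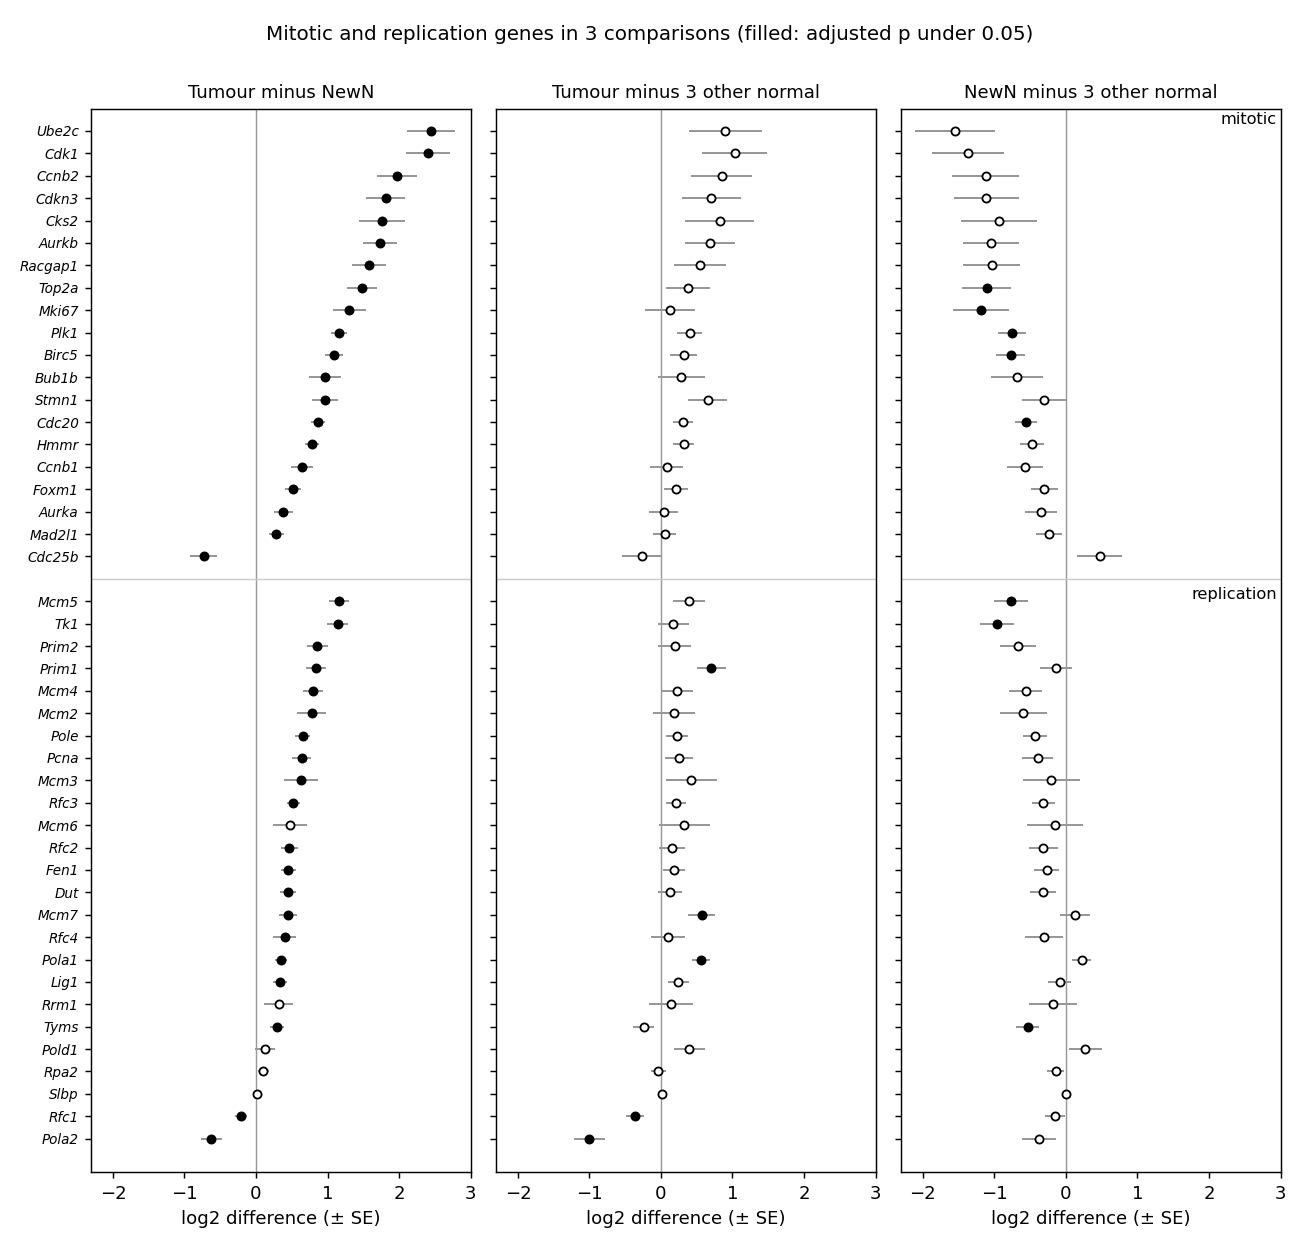
Log2 differences with their SE (x axis) for the 20 mitotic and 25 replication genes (y axis, ordered by the first panel) in 3 comparisons, with filled points for adjusted p under 0.05. In the first panel the mitotic genes reach 2.44 and the replication genes 1.16, and in the second panel no mitotic point is filled.

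Of 7 genes for the switch into mitosis (cyclin B, Cdk1 and their control), 6 rose, with a median log2 difference of 1.76 over the 7. The signal of Cdk1, the kinase that drives mitosis, was 37.8 at the lowest, 65.2 at the median and 139 at the highest over the 8 NewN glands, and 110, 369 and 902 over the 24 tumours. Only 1 tumour (X4) lay within the NewN range. The log2 difference was 2.41 ± 0.30 (5.30-fold, limma adjusted p = 4.09e-08). Its partner Ccnb2 (cyclin B2) ran from 41.2 through a median of 74.7 to 148 in NewN glands and from 113 through 302 to 598 in tumours, a difference of 1.97 ± 0.28. Ccnb1 (cyclin B1) rose by 0.65 ± 0.15 on the probe set used, on which its counts rest. Its other probe set was called higher too, with a larger rise of 1.35 ± 0.24. The phosphatase Cdkn3, which acts on cyclin-dependent kinases, and Cks2, a small subunit of those kinases, rose by 1.82 ± 0.27 and 1.76 ± 0.32. Foxm1, a transcription factor of late cell cycle genes, gave 0.51 ± 0.11 (adjusted p = 0.000193), but 7 of 8 NewN glands were at the floor and the call was lost with the floor at the 20th percentile (0.05, adjusted p = 0.290).

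Cdc25b was the single mitotic gene that fell. It encodes a phosphatase that activates Cdk1. Its signal was 72.2 at the lowest, 87.1 at the median and 243 at the highest in NewN glands, and 40.4, 59.3 and 143 in tumours. Of the 24 tumours, 19 lay below every NewN gland, and NewN4 (167) and NewN6 (243) stood above the other 6 NewN glands. The log2 difference was -0.73 ± 0.19 (adjusted p = 0.00116), and -0.42 without the lymphocyte-rich glands (adjusted p = 0.0436).

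Kinases and checkpoint proteins of mitosis rose in all 5 cases. Plk1, a kinase of mitotic entry and spindle assembly, was 79.0, 106 and 130 (lowest, median and highest) in NewN glands and 155, 226 and 401 in tumours. Every tumour lay above every NewN gland, and the difference was 1.16 ± 0.12 (adjusted p = 3.27e-10). Aurkb, the kinase of the chromosomal passenger complex, rose by 1.73 ± 0.23, and Aurka, the kinase of the spindle poles, by 0.38 ± 0.13. The spindle checkpoint genes Bub1b (0.96 ± 0.22) and Mad2l1 (0.28 ± 0.11) also rose, though 7 and 5 of the 8 NewN glands were at the floor. Both calls were lost with the higher floor (adjusted p = 0.0541 and 0.494), and that of Mad2l1 also with quantile normalization (adjusted p = 0.217).

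Both genes of the destruction machinery rose. Ube2c, the ubiquitin-conjugating enzyme of the anaphase-promoting complex, gave the largest difference of the 45 genes. Its signal was 32.8, 60.8 and 158 in NewN glands and 85.9, 359 and 881 in tumours, with 22 tumours above all NewN glands. The difference was 2.44 ± 0.34 (5.44-fold, adjusted p = 2.13e-07). Cdc20, the activator of that complex, rose by 0.87 ± 0.095 with every tumour above every NewN gland, and all 5 of its probe sets were called higher.

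The genes of spindle, chromosomes and cytokinesis rose in 6 of 6 cases. Mki67, which encodes the proliferation marker Ki-67, was 50.2, 67.7 and 88.5 in NewN glands and 69.0, 168 and 413 in tumours, and the difference was 1.31 ± 0.23 (adjusted p = 1.35e-05). Top2a, the topoisomerase that untangles chromosomes, rose by 1.49 ± 0.21, and Racgap1, needed for cytokinesis, by 1.58 ± 0.24. For Racgap1, 6 of 8 NewN glands were at the floor, so its rise is understated. Birc5 (survivin) and Hmmr, a spindle protein, separated the groups without overlap, with differences of 1.09 ± 0.13 and 0.79 ± 0.098. Stmn1, which takes microtubules apart, rose by 0.96 ± 0.19.

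**Figure D2:**
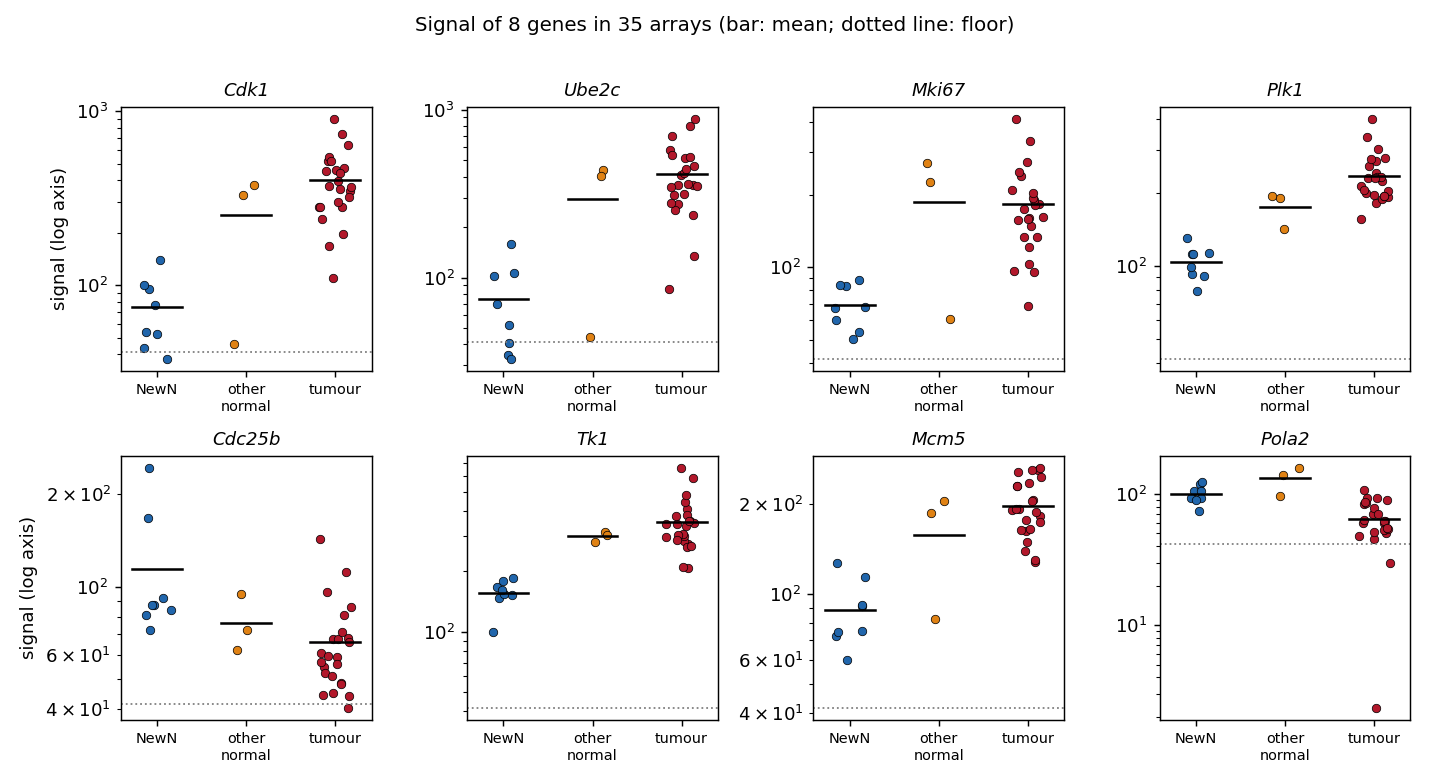
Deposited signal (y axis, log scale) of 5 mitotic and 3 replication genes in each of the 35 arrays (points) by group (x axis), with a bar at the group mean and a dotted line at the floor. Plk1, Tk1 and Mcm5 are higher in every tumour than in every NewN gland, Cdc25b and Pola2 are mostly lower in tumours, and for Cdk1, Ube2c and Mki67 one of the 3 other normal glands lies at the NewN level and the other two within the tumour range.

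Among the replication genes, the subunits of the MCM helicase rose in 5 of 6 cases. Mcm5 was 60.0, 83.4 and 127 in NewN glands and 128, 191 and 263 in tumours, without overlap, a difference of 1.16 ± 0.15 (adjusted p = 3.03e-08). Mcm4, Mcm2 and Mcm7 rose by 0.79 ± 0.14, 0.78 ± 0.20 and 0.45 ± 0.13. For Mcm2, 22 tumours lay above all NewN glands and 1 tumour (X29.2) was deposited at 1, the lowest value of the table. Mcm3 rose by 0.63 ± 0.24 (adjusted p = 0.0227), although no tumour lay above all NewN glands, since NewN6 had 426 and NewN4 had 214 against 56.4 to 109 in the other 6. Mcm6 gave 0.48 ± 0.24 and did not pass (adjusted p = 0.0816), with 194 in NewN6 and 134 in NewN4. Without the lymphocyte-rich glands the differences were 1.14 for Mcm3 and 0.77 for Mcm6 (adjusted p = 1.21e-07 and 0.00620).

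DNA polymerases and primase moved in both directions. Both primase subunits rose, Prim2 by 0.86 ± 0.15 and Prim1 by 0.84 ± 0.14, as did Pole (0.65 ± 0.10), the catalytic subunit of the leading-strand polymerase. Pola1, the catalytic subunit of the priming polymerase alpha, rose by 0.35 ± 0.083. Its partner Pola2, the regulatory subunit of the same enzyme, fell: it was 74.4, 99.1 and 124 in NewN glands and 2.34, 62.1 and 107 in tumours, with 16 tumours below all NewN glands. The difference for Pola2 was -0.62 ± 0.15 (adjusted p = 0.000417). Pold1, the catalytic subunit of polymerase delta, gave 0.13 ± 0.14 and did not pass (adjusted p = 0.455).

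Of 8 genes for the clamp, its loader and the lagging strand, 6 rose. Pcna, the clamp itself, was 668, 698 and 1054 in NewN glands and 664, 1221 and 1790.4 in tumours, and the difference was 0.64 ± 0.13 (adjusted p = 7.71e-05). The loader subunits Rfc2, Rfc3 and Rfc4, the flap endonuclease Fen1 and the ligase Lig1 rose by 0.33 to 0.52, where the call of Rfc4 was lost with quantile normalization (adjusted p = 0.101). The large loader subunit Rfc1 fell by 0.21 on the log2 scale (SE 0.085, adjusted p = 0.0345). All 3 probe sets of Rfc1 were called lower, but the call of the one used was lost with quantile normalization (adjusted p = 0.209) and without the lymphocyte-rich glands (adjusted p = 0.101). Rpa2, a subunit of the protein that coats single-stranded DNA, gave 0.10 ± 0.071 (adjusted p = 0.207).

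Genes of nucleotide and histone supply rose in 3 of 5 cases. Tk1, the thymidine kinase of S phase, was 99.7, 158 and 186 in NewN glands and 209, 341 and 657 in tumours, without overlap, a difference of 1.14 ± 0.14 (adjusted p = 3.09e-08). Dut, which clears dUTP, rose by 0.45 ± 0.11. Tyms (thymidylate synthase) rose by 0.29 ± 0.094 with 5 of 8 NewN glands at the floor, and its call was lost with the higher floor and with quantile normalization (adjusted p = 0.509 and 0.136). Rrm1, the large subunit of ribonucleotide reductase, gave 0.32 ± 0.20 (adjusted p = 0.175). Slbp, which binds histone mRNA, was at the floor in 23 of 24 tumours and in all 11 glands, so no change could be measured.

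Other genes of the same processes were counted from lists drawn up with earlier results of these data known. Of 27 other mitotic genes measured (54 listed), 24 rose and 1 fell, with a median of 0.79. The largest rises were those of Kif20a, a cytokinesis motor (1.77 ± 0.25), Pttg1, securin (1.58 ± 0.19), and Espl1, separase (1.49 ± 0.16), and the kinetochore gene Zwint fell (-0.54 ± 0.13). Of 32 other replication genes measured (60 listed), 19 rose, 3 fell and 10 did not pass, with a median of 0.43. Ccne2 (cyclin E2, 1.29 ± 0.17), Gins3, a helicase partner (0.98 ± 0.14), and the checkpoint kinase gene Chek1 (0.96 ± 0.15) rose most. Those that fell were Orc4 of the origin recognition complex (-0.63 ± 0.094) and the small polymerase subunits Pold4 (-0.62 ± 0.14) and Pole4 (-0.58 ± 0.077).

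Promoter windows from 250 bases before to 50 after the gene start, from RefSeq on rat build GRCr8, were found for 22 of the 28 mitotic and 26 of the 29 replication genes. They were searched on both strands for CCAAT, for the CHR letters TTTGAA and for the E2F letters (TTGGCGC itself, or TTCCCGC instead, or TTGCCGC in turn, or last TTCGCGC), where overlapping matches count separately. The 160 bases before the start are printed for the 3 genes of each class with the largest differences among those with a table entry and a motif wholly before the start, and for Rpa2, whose difference was the smallest among replication genes above the floor. Capitals mark the searched motifs on either strand.
Cdk1 (chr20:19265133-19265292, + strand): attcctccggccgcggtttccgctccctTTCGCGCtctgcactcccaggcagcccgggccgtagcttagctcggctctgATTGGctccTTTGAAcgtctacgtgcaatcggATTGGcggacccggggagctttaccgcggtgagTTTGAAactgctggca
Ccnb2 (chr8:79981659-79981818, - strand): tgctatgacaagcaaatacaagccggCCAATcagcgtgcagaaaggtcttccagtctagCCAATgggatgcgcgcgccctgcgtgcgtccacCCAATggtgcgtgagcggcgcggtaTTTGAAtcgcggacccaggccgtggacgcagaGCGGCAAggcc
Cdkn3 (chr15:22502226-22502385, + strand): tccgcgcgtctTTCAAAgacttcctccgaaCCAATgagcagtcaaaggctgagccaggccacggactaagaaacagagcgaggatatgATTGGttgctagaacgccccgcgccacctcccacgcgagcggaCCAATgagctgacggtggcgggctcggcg
Mcm5 (chr19:13488653-13488812, + strand): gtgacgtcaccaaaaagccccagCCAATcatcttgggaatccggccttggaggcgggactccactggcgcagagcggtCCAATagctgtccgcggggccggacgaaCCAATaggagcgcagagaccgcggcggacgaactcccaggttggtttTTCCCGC
Mcm2 (chr4:122918095-122918254, - strand): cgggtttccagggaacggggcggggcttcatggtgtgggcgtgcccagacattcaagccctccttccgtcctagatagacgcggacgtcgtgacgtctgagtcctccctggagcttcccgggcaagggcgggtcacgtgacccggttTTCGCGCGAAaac
Pole (chr12:52053663-52053822, - strand): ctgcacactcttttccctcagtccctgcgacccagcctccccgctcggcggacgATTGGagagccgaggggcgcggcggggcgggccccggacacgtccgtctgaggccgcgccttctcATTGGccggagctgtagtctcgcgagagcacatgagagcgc
Rpa2 (chr5:150260612-150260771, + strand): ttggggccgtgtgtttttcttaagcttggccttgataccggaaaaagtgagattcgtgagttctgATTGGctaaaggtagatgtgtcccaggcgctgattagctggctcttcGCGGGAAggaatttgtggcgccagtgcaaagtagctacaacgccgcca
In these printed 160 bases CHR letters stand in the 3 mitotic promoters and in none of the 4 others (Mcm2 has 2 matches further upstream), CCAAT stands in all but that of Mcm2, and the E2F letters of Mcm2 form an overlapping pair just before the start. Over all windows, CHR letters were found in 15 of 22 mitotic promoters (68.2%), in 2 of 26 replication promoters (7.69%) and in 17% of 19005 protein-coding promoters. E2F letters were found in 6 mitotic (27.3%) and 21 replication promoters (80.8%), against 12.2% of all. CCAAT was found in 81.8%, 53.8% and 38.4%. CCAAT and CHR letters stood together in 13 mitotic promoters (59.1%) and in 0 of the 26 replication promoters, against 7.04% of all. Among the replication genes, the promoter of Pola2, which fell, and those of Tk1, Prim2 and Dut, which rose, held none of the 3 motifs. A match is a description of letters and shows no binding.

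**Figure D3:**
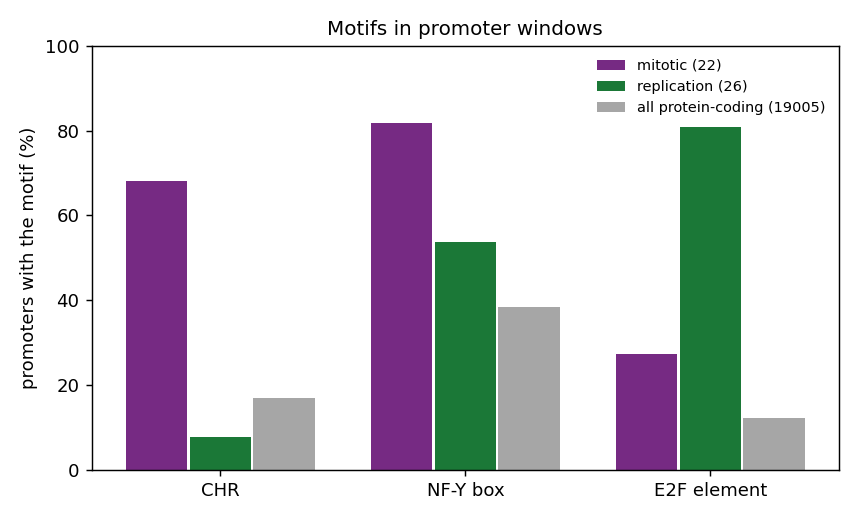
Percent of promoter windows (y axis) that hold CHR, NF-Y box (CCAAT) or E2F letters (x axis) among 22 mitotic genes, 26 replication genes and 19005 protein-coding genes. CHR letters are most frequent in the mitotic set (68.2%) and E2F letters in the replication set (80.8%).

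Against the 3 other normal glands, the tumours showed little difference that passed the test. This comparison shares the tumours with the first. Of the 20 mitotic genes 0 were called in limma (5 were higher and 0 lower at an unadjusted p under 0.05), where 8.77% of all genes were called higher and 12.2% lower. The median difference was 0.35, and 19 of the 20 differences were above 0. For Cdk1 the difference was 1.03 ± 0.46 (adjusted p = 0.111), for Mki67 it was 0.12 ± 0.35 (adjusted p = 0.866), and for Ube2c 0.90 ± 0.51 (adjusted p = 0.225). Of the 25 replication genes, Prim1 (0.70 ± 0.20), Mcm7 (0.57 ± 0.19) and Pola1 (0.57 ± 0.13) were called higher. Pola2 (-1.0 ± 0.22) and Rfc1 (-0.36 ± 0.13, for the probe set used) were called lower. Another probe set of Rfc1 was called lower too (-0.50, adjusted p = 0.0368), and a further one was not called (0.15, adjusted p = 0.409). The calls of Prim1, Mcm7 and Pola1 were lost without X28.1N (adjusted p = 0.320, 0.355 and 0.0908), in which their signals were 51.7, 195 and 69.1. Without Young, those of Prim1 and Mcm7 were lost (adjusted p = 0.0583 and 0.165), and that of Rfc1 was lost without X27.1N or X28.1N (adjusted p = 0.219 and 0.172). The median over the 25 was 0.19. With 3 glands against 24 tumours, a call that was missed does not show that levels were alike.

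The contrast between the normal groups is the test of the difference between the 2 tumour comparisons. NewN glands were lower than the other 3 for 5 mitotic and 3 replication genes and higher for 0 of either, where 4.85% of all genes were called lower and 5.19% higher. Another 8 mitotic and 3 replication genes were lower only at an unadjusted p under 0.05. The median difference was -0.77 over the mitotic and -0.30 over the replication genes, against 0 over all genes, and 19 of 20 and 21 of 25 differences were below 0. The 5 mitotic genes were Mki67 (-1.19 ± 0.39), Top2a (-1.11 ± 0.35), Birc5 (-0.77 ± 0.21), Plk1 (-0.76 ± 0.19) and Cdc20 (-0.56 ± 0.16), with adjusted p from 0.0110 to 0.0432. The 3 replication genes were Tk1 (-0.97 ± 0.24), Mcm5 (-0.77 ± 0.24) and Tyms (-0.54 ± 0.16), with adjusted p of 0.00799, 0.0348 and 0.0236. With quantile normalization 5 of these 8 calls were lost, those of Mki67, Top2a, Cdc20, Mcm5 and Tyms (adjusted p = 0.133, 0.103, 0.0704, 0.110 and 0.0526). With the floor at the 20th percentile those of Mki67 and Tyms were lost (adjusted p = 0.0599 and 0.874). Of the probe sets not used, that of Tk1 and 1 of 4 of Cdc20 were called lower, the second one of Top2a was not (-0.47), and 1 of Rfc1 was called higher (0.49, adjusted p = 0.0153). Differences of Ube2c (-1.54 ± 0.56, adjusted p = 0.0691) and Cdk1 (-1.37 ± 0.50, adjusted p = 0.0722) were larger with a wider spread.

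The 3 other normal glands were unlike one another for Cdk1, Ube2c and Mki67. The Cdk1 signal was 377 in X27.1N, 332 in Young and 45.9 in X28.1N. Ube2c was 436, 404 and 44.1 in the same order, and Mki67 was 226, 271 and 60.8. X27.1N and Young thus lay within the tumour range, whose medians were 369, 359 and 168, while X28.1N lay within the NewN range for these 3 genes. Tk1 did not show this split, at 316, 303 and 280, all above the highest NewN gland (186), nor did Cdc20, at 279, 246 and 277 against at most 221. Without X28.1N, 11 mitotic and 4 replication genes were called lower in NewN glands. Without X27.1N, 0 mitotic and 1 replication gene were called, and without Young 1 and 1. For these smaller fits the share of all genes called is not given here.

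Young and X27.1N differed in which genes stood out. Young lay above all 8 NewN glands for 18 of 20 mitotic but 7 of 25 replication genes. X27.1N did so for 16 and 17, and X28.1N for 2 and 4. The counts in this paragraph cover the members only, without a share over all genes. On the mean log2 signal of a class above the NewN mean, Young had 1.22 for the mitotic and 0.31 for the replication genes, X27.1N had 1.19 and 0.64, and X28.1N had -0.16 and -0.08. Mcm3, for example, was 267 in X27.1N and 104 in Young, and Pcna was 1339 and 972. X27.1N was rich in lymphocyte transcripts and Young was not. NewN6 and NewN4, the other lymphocyte-rich glands, were the highest NewN glands for 17 and 1 of the replication genes and for 5 and 9 of the mitotic genes. Without these 3 lymphocyte-rich glands, 0 mitotic and 0 replication genes were called in the contrast of normal groups, from 6 and 2 glands. The differences in that fit were of like size, -1.02 for Mki67, -0.96 for Tk1 (adjusted p = 0.203 and 0.0516) and -0.69 for Plk1 (adjusted p = 0.0896). With the mean log2 signal of the luminal markers as a covariate, 0 and 0 were called as well (Plk1 -0.60, adjusted p = 0.0660). That marker mean was 9.49 ± 0.26 (SD, n = 8) in NewN glands and 8.40 ± 0.34 (SD, n = 3) in the other 3. The lowest NewN gland had 8.88 and the highest of the other 3 had 8.79, without overlap. Among normal glands, the marker mean and the group thus cannot be told apart in that fit.

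**Figure D4:**
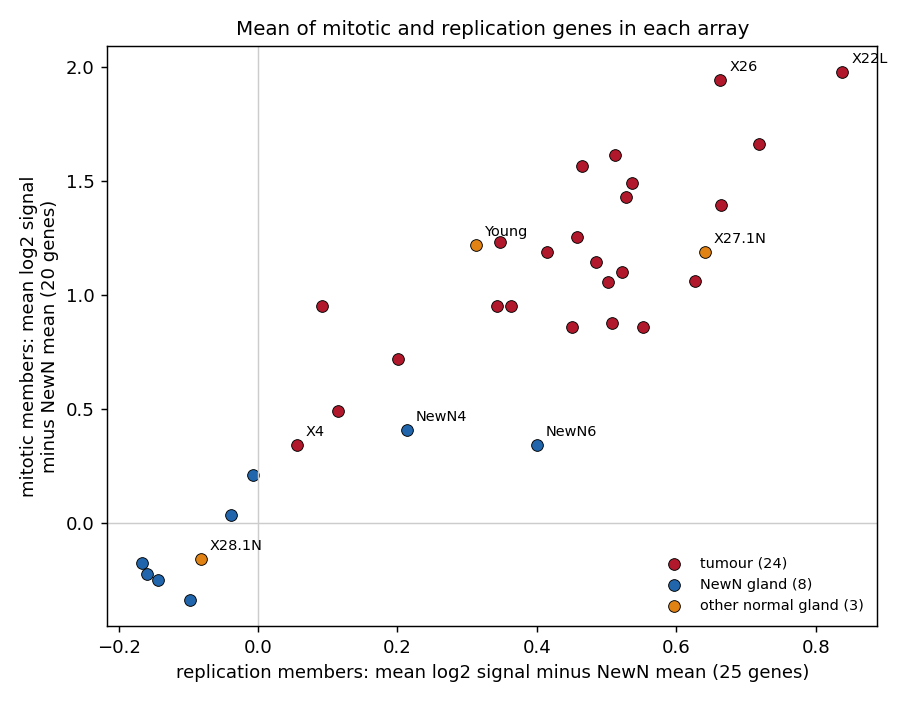
Mean log2 signal above the mean of the 8 NewN glands over 25 replication genes (x axis) and 20 mitotic genes (y axis), 1 point per array, coloured by group. X27.1N and Young lie among the tumours and X28.1N among the NewN glands, and X4 is the tumour with the lowest mitotic mean (0.34).

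Between tumours, the mitotic genes varied more than the replication genes. The mean of the mitotic genes above the NewN mean was 1.17 ± 0.41 (SD, n = 24), from 0.34 in X4 to 1.98 in X22L, and that of the replication genes was 0.46 ± 0.19 (SD, n = 24), from 0.06 in X4 to 0.84 in X22L. The mitotic mean exceeded the replication mean in each of the 24 tumours, by 0.28 to 1.28, where the 8 NewN glands, centred on 0 by construction, ran from -0.24 to 0.22. In the other normal glands this excess was 0.91 in Young and 0.55 in X27.1N, within the tumour range, and -0.08 in X28.1N. Across the tumours the SD of a gene's log2 signal had a median of 0.50 over the mitotic and 0.31 over the replication genes, and between the highest and the lowest tumour a gene differed by a median of 4.22-fold and 2.44-fold. Across the 8 NewN glands, where several genes lay at the floor, the median SD was 0.31 and 0.26, in the same order of classes. The mitotic range was widest for Cdkn3 (10.9-fold) and Ube2c (10.3-fold) and narrowest for Cdc20 (1.85-fold).

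The same tumours tended to stand at the ends. X22L had the highest signal of the 24 tumours for 9 mitotic and 9 replication genes, and X26 for 8 mitotic genes and 1 replication gene. X4 had the lowest for 11 mitotic and 9 replication genes, and lay above all NewN glands for 8 of 20 and 8 of 25. How often these tumours stood at the ends over all genes is not given here. X22L was poor in luminal markers, with a mean log2 signal of 6.41 against a tumour median of 10.1, and leaving it out changed no count of called genes in tumours against either normal group. As a description over the 24 tumours, which share platform and scaling, the Pearson correlation between pairs of mitotic genes had a median of 0.64 and was above 0 in all 190 pairs. It had a median of 0.38 in 276 pairs of replication genes, of which 235 were above 0, and 0.38 in 480 pairs across the classes, where Slbp was left out. Pola2 and Prim2 did not follow their class, with r = -0.17 and -0.06 to the mean of the other replication genes.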

How the data were processed

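The authors deposited 1 table of linear intensity signals, with 15923 probe sets of the RAE230A design and 35 arrays. How they corrected background, summarised probes and scaled arrays is not given in the sources used here. No deposited signal was under 1. The 57 control probe sets were left out, values under the 10th percentile (41.6) were set to it, and log2 was taken. Gene symbols are those of the array annotation, compared through Entrez identifiers with RefSeq GRCr8 (12748 of 15866 probe sets matched, 0 symbols changed); 12783 probe sets carry 1 symbol, 312 several and 2771 none. Of several probe sets for a gene, the one with the highest overall mean was used.

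Group means of tumours, NewN glands and the 3 other normal glands were fitted with limma 3.58.1 in R 4.3.3 (lmFit, contrasts.fit, eBayes with trend and robust options) on the 35 arrays together, with Benjamini-Hochberg adjustment over all 15866 probe sets. The procedure was tested on simulated data. The precision is limited by the number of arrays, above all the 3 other normal glands. The highest correlation between 2 arrays was 0.987, so none was a copy of another.

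The members and lists were chosen with earlier results of these data known. The text names all members: with values for each role's largest rise and fall, members called between the normal groups, and members that missed the test against NewN glands; of other pathway genes, up to 3 rises and 3 falls a list are named. Promoter windows and the motif search used Python 3.11.15.

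Alternatives changed scaling, floor, filter, spread model, probe set choice, a block on title numbers, a luminal covariate and the glands included.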

Additional observations from a re-analysis of the deposited data

Results flagged for a closer look

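In the 8 NewN glands, 5 of 47 values tested had 1 gland far from the others. The gap to its nearest neighbour was taken as a share of the whole range, on floored log2 values. That share was set against Dixon's 95% critical value of 0.526. Chance flags about 1 in 20 such groups. For the MCM helicase gene Mcm2, NewN6 (211) stood above the next gland (149), with a ratio of 0.578. For Tyms (thymidylate synthase), NewN6 (49.3) stood above the next (43.7), with a ratio of 0.713. For Tyms, 5 of the 8 glands were at the floor, which set the low end of the range. For Tk1 (thymidine kinase), NewN7 (99.7) stood below the next (148), with a ratio of 0.634. For Foxm1 in NewN3 (41.9) and for Bub1b in NewN5 (52.6) the ratio was 1, because the other 7 glands were at the floor, where values have no order. NewN6 was the gland with the highest B-cell marker mean (9.38), and the part of lymphocytes in its values was not tested.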

How the results depend on the processing

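No called difference changed sign under an alternative. Over the 45 genes and 3 comparisons, 1651 of the values under an alternative stayed on the same side of the threshold, 63 lost a call and 62 gained one. Of the 62 gained, 33 came from the fit of all 11 normal glands as 1 group, which was entered for both tumour comparisons. Set against the comparison with the other 3 glands, that fit adds the 8 NewN glands, so these 33 reflect a changed comparison. Against NewN glands, testing the brighter 22 of the 45 genes left 12 mitotic genes higher and 0 lower and 9 replication genes higher and 1 lower, a fall set by the fewer genes tested. The 2 replication genes lower became 1 with quantile normalization and 1 without the lymphocyte-rich glands. Against the other 3 glands, the 0 mitotic genes higher became 1 with quantile normalization, 2 with the replicate block, 3 with the luminal covariate, 2 without the lymphocyte-rich glands and 0 to 2 leaving out 1 gland. The 3 replication genes higher became 1 among the brighter genes, 5 without the lymphocyte-rich glands and 0 to 4 leaving out 1 gland. The 2 replication genes lower became 1 with quantile normalization, among the brighter genes, with the mean of probe sets, with the luminal covariate and without the lymphocyte-rich glands, and 1 to 2 leaving out 1 gland. With all 11 normal glands as 1 group, 19 mitotic genes were higher and 1 lower, and 16 replication genes were higher. Between the normal groups, the 5 mitotic genes lower became 2 with quantile normalization, 0 with the luminal covariate, 0 without the lymphocyte-rich glands and 0 to 11 leaving out 1 gland. The 3 replication genes lower became 1 with quantile normalization, among the brighter genes and with the replicate block, 0 with the luminal covariate, 0 without the lymphocyte-rich glands and 1 to 4 leaving out 1 gland. Except for these smaller fits, the cause was not tested. The share of all genes called is not given for the alternative fits in this section, so its counts describe the members only. Title numbers shared by 2 samples gave deviations from the group means that correlated at 0.01, 0.04, 0.04 and 0.36, so only X29.1 and X29.2, at 0.36, deviated clearly together, and the labels state no pairing. With the numbers as a random replicate block (consensus correlation 0.25), Mcm5 and Tyms lost their calls between the normal groups (adjusted p = 0.0616 and 0.0692) and Cdc20 and Stmn1 gained one in tumours against the other 3 glands (adjusted p = 0.0468 and 0.0435). Signals near the floor limit Foxm1, Bub1b, Mad2l1, Tyms and Slbp. Racgap1, Cdkn3 and Ube2c also had 6, 4 and 3 of 8 NewN glands at the floor.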
